A study of Mus musculus with 6 samples.

Results

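The mouse genes of the BTB adaptors of cullin ubiquitin ligases and of the cullins themselves were followed in newborn neocortex with and without a deletion of Tcf4. Members were chosen by gene symbol alone: every gene whose symbol starts with Klhl, Kbtbd, Kctd, Btbd or Cul followed by a digit. This gave 78 of the 15703 genes with values, namely 32 Klhl, 20 Kctd, 10 Btbd, 8 Kbtbd and 8 Cul genes. The family was picked out with values of the WT against cKO contrast already known, so the counts of members that differ between the genotypes are a description of these libraries, and nothing is read from their share.

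Gene expression was measured by RNA sequencing in 6 neocortices taken at postnatal day 0, with 3 libraries from WT mice and 3 from cKO mice. The cKO mice were Tcf4 f/f; Emx1Cre/+, that is, both copies of Tcf4 were floxed and the Cre recombinase was expressed from the Emx1 locus. Mice of both groups were on a C57BL/6 background. Emx1 Cre acts in the dorsal progenitors that give rise to cortical excitatory neurons and to cortical glia, so RNA of the whole neocortex also comes from cells without recombination, such as interneurons, microglia and blood vessels. The 6 libraries carry 6 different animal codes in their titles, and they are called WT 1 to WT 3 and cKO 1 to cKO 3 here. The p-values measure only the spread between these libraries.

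A cullin-RING ligase is built on a rod-shaped cullin, which holds a RING protein at one end and a substrate adaptor at the other. Cul3 uses BTB proteins as adaptors: the BTB domain binds the cullin and a second region, a Kelch propeller in the Klhl and Kbtbd proteins, holds the protein to be ubiquitylated. Some Kctd proteins are Cul3 adaptors as well, whereas others are auxiliary subunits of the GABA-B receptor, which dampens synaptic transmission in the cortex.

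Tcf4 is a basic helix-loop-helix factor, a class of proteins that bind E-boxes (CANNTG). The promoters of a few members are therefore printed beside their values. The sequences are the 250 bases upstream of a RefSeq transcript start (GRCm38.p6), 5′ to 3′ on the strand of the gene, with each CANNTG match in capitals. Klhl25 and Klhl13 are shown as the called Klhl genes with the smallest p-values among those that were higher in cKO, and Klhl32 as the one with the smallest p-value among those that were lower. The windows are chr7:75848088-75848337 (plus strand) for Klhl25, chrX:23365083-23365332 (minus strand) for Klhl13, which has 5 listed windows, and chr4:24851125-24851374 (minus strand) for Klhl32.
Klhl25: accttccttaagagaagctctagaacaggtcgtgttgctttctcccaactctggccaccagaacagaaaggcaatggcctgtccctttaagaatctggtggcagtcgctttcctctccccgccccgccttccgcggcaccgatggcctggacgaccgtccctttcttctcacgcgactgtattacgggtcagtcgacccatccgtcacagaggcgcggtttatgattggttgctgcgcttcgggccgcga
Klhl13: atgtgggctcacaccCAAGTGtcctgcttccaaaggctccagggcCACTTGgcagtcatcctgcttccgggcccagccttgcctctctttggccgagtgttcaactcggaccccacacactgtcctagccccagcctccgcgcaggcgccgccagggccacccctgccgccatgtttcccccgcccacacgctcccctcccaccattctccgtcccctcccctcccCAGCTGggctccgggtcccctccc
Klhl32: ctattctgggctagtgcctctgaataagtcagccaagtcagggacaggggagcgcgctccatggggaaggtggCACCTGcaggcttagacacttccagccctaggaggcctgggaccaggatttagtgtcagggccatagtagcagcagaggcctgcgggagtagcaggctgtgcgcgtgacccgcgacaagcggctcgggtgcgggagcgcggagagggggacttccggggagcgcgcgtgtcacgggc
The Klhl25 window held 0 matches, the Klhl32 window held 1 that started 177 bases before the transcript start, and the Klhl13 window held 3 that started 235, 205 and 24 bases before it. The pattern CANNTG reads the same on both strands, so a single search covered both. Of the 62 members with a window, 37 (59.7%) had a match in at least 1 of their windows, against 18729 of 27025 genes (69.3%) with a window. That background takes in every gene with a RefSeq window, whether or not it was among the 15703 genes measured here. Among the members called higher the share was 5 of 9 (55.6%), and among those not called it was 58.8%. These matches are letters in a window and were not tested as binding sites.

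The step size of the low FPKM values gave library sizes of 23.2 to 26.1 M reads. Recovered reads summed over the listed genes came to 25.3 to 28.8 M, above the size found for each library, so these read numbers are approximate. Tcf4 itself was measured at 71.2, 75.6 and 75.3 FPKM, a read count scaled to gene length and library size, in WT 1 to WT 3 and at 56.5, 60.6 and 55.3 FPKM in cKO 1 to cKO 3. Its log2 difference was -0.36 (limma adjusted p = 0.00411), and Tcf4 was lower in every cKO library than in every WT library. A value for the whole gene does not show which exons were lost. The labelled tissue showed its defining markers, with Neurod6, a marker of cortical excitatory neurons, at 272 to 369 FPKM over the 6 libraries. WT 1 and cKO 3 showed a male pattern of sex-linked genes and the others a female one, which is 1 male and 2 females in each group.
In the cell type lists, 9 of 11 astrocyte markers were called lower in cKO, with summed levels of 225 to 271 FPKM in WT and 184 to 214 FPKM in cKO. Of the microglia markers 6 of 11 were called lower (35.9 to 41.7 FPKM against 22.6 to 30.4 FPKM), and of the interneuron markers 6 of 18 (256 to 280 FPKM against 248 to 264 FPKM). Of the projection neuron markers 9 of 17 were called lower and 0 higher (816 to 868 FPKM against 788 to 834 FPKM). Of the progenitor markers 4 of 17 were called higher and 1 lower. The log2 difference was above 0 for 13 of these 17 and below 0 for 4, with a median of 0.227. Their summed level was 611 to 627 FPKM in WT and 416 to 538 FPKM in cKO. Mean levels in this list had a median of 7.39 FPKM and a maximum of 383 FPKM, so the sum mostly reflects its most abundant genes. Of the oligodendrocyte lineage markers 3 of 9 were called lower (85.8 to 95.2 FPKM against 67.1 to 76.6 FPKM). Of the markers of endothelial and mural cells, meninges and blood, 0 of 10, 0 of 6 and 0 of 3 were called by limma or by voom on recovered reads, and 1, 0 and 0 had an unadjusted p under 0.05. In the lists for neighbouring tissue, 1 of 9 striatal markers was called higher and 1 lower (17.1 to 22.5 FPKM against 17.3 to 20.1 FPKM), 2 of 7 hippocampal markers were called lower and 1 of 8 thalamic markers was called lower. Each marker in these lists was above 0 in at least 1 library. The part of these markers in the members' values was not tested, and in whole tissue fewer cells of a type and less RNA per cell cannot be told apart.

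Genotypes were compared with limma on log2(FPKM + 1), and a gene was called where the p-value adjusted over all 15703 genes was under 0.05. A difference on this scale understates the change of genes near 1 FPKM, so ratios of the group means in FPKM are given beside it. By this test 16 of the 78 members (20.5%) were called, against 15.8% of all genes. In cKO 13 members (16.7%) were called higher and 3 (3.85%) lower, against 7.22% and 8.59% of all genes. The median log2 difference was 0.055 over the members and 0.002 over all genes tested.
With no test applied, 23 members had every cKO library above every WT library and 7 had every cKO library below, while the groups overlapped for the other 48. Groups that do not overlap were found for 37.3% of all genes, with all cKO libraries above in 18.5% and all below in 18.7%. These member counts were made on the contrast that drew attention to the family. The 13 higher calls comprised 9 Klhl, 2 Kctd and 2 Btbd genes, and the 3 lower calls comprised 2 Klhl genes and 1 Kctd gene. None of the 8 Kbtbd and none of the 8 Cul genes was called by limma on the uncorrected values of all libraries. There, 1 gene of each class had an unadjusted p under 0.05. Voom on recovered reads called 1 of each, and limma after correction for length and GC called 1 Cul gene, Cul7.
The counts of members and of all genes both depended on single libraries. Members called higher numbered 6 (7.69%, against 3.46% of all genes) without WT 1 and 7 (8.97%, against 3.6%) without cKO 1. They numbered 5 (6.41%, against 3.68%) without cKO 2 and 8 (10.3%, against 5.35%) without cKO 3. The count was 16 (20.5%, against 10%) without WT 2 and 9 (11.5%, against 5.1%) without WT 3. Without WT 2, Kbtbd7, Kctd7 and Klhl18 were gained as higher calls and Klhl40 and Kbtbd13 as lower calls. The lower calls numbered 1 (1.28%) each without WT 3, cKO 1 and cKO 3, against 7.2%, 5.29% and 6.79% of all genes. In all 6 of these reduced sets, and in the 8 other settings tried, 6 of the 16 members stayed called: Klhl25, Kctd16, Klhl13, Klhl14 and Klhl29, which rose, and Klhl32, which fell.

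**Figure D1:**
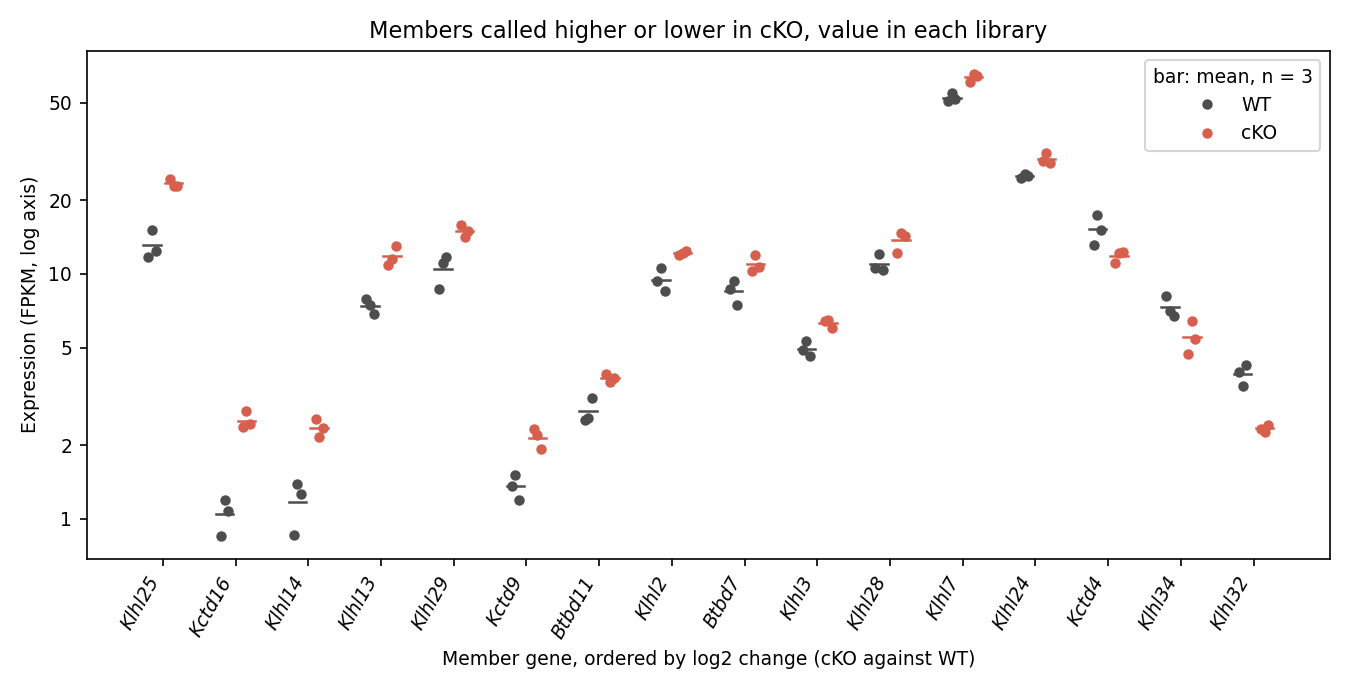
FPKM of the 16 called members in the 3 WT and 3 cKO libraries on a shared log axis, genes ordered by log2 difference, with 1 point a library and the group mean as a bar. Kctd16, Klhl14 and Klhl25 show the largest ratios of the means (2.42, 2.01 and 1.79), and Klhl34 and Klhl28 show libraries that lie close to those of the other group.

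**Figure D2:**
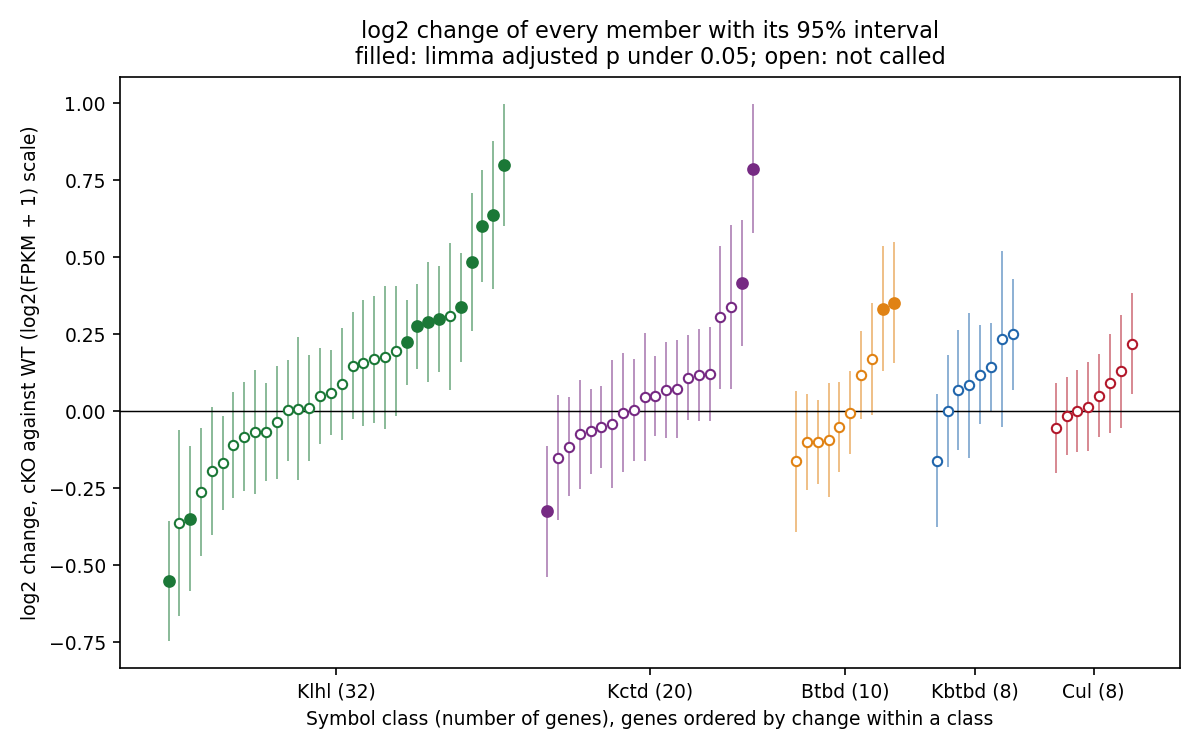
Log2 difference between cKO and WT (log2(FPKM + 1) scale) of all 78 members by class, with 95% intervals as vertical lines and called members filled. 50 members lie above 0 and 28 below, and the 8 cullins lie between -0.06 and 0.22.

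None of the cullin scaffolds passed the limma test on the uncorrected values of all libraries, and the largest difference among them was that of Cul7. Cul3, the scaffold that BTB adaptors bind, was measured at 41.2, 40.5 and 40.8 FPKM in the WT libraries and 39.4, 40 and 41.8 FPKM in the cKO libraries. The groups overlapped, the log2 difference was -0.02 (95% interval -0.142 to 0.112), and limma gave an adjusted p of 0.878. As a ratio on that scale the interval runs from 0.906 to 1.08. Cul1, the scaffold of SCF ligases, went from 39.6 ± 2.07 to 38.1 ± 1.73 FPKM (SD, n = 3 each; limma adjusted p = 0.589).
Cul2 and Cul5, which work with elongins, and Cul4a and Cul4b, which work with Ddb1, were also not called. Cul2 averaged 20 FPKM in WT and 20.2 FPKM in cKO (limma adjusted p = 0.902), and Cul5 12.6 and 13.1 FPKM (adjusted p = 0.595), although all 3 cKO libraries of Cul5 lay above the WT libraries. The differences of Cul2, Cul4a and Cul5 changed sign after correction for length and GC. Cul4a averaged 13.9 FPKM in both groups (adjusted p = 0.992) and Cul4b 16.3 and 17.4 FPKM (adjusted p = 0.41). Cul9, a large cullin of the cytoplasm, averaged 6.02 and 6.69 FPKM (adjusted p = 0.307).
Cul7, the scaffold that pairs with Fbxw8 and is mutated in 3-M growth syndrome, was nearest to the threshold. It was measured at 15, 15.2 and 13.2 FPKM in the WT libraries and 17.9, 16.7 and 16.3 FPKM in the cKO libraries, and every cKO library was above every WT library. Its log2 difference was 0.22 (limma adjusted p = 0.0702). Cul7 passed the threshold when length and GC content were corrected for (adjusted p = 0.0392) and with voom on recovered reads (adjusted p = 0.0449). It was not called in any other setting. The limma adjusted p was 0.0540 to 0.208 with 1 library left out and 0.108 with a term for sex. It was 0.0885 without trend and robust moderation and 0.0520 with the replicate block.
Summed over the 8 cullins, expression was 164 FPKM in WT and 167 FPKM in cKO.

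Among the Klhl genes, the BTB-Kelch adaptors, 9 of 32 (28.1%) rose and 2 (6.25%) fell, against 7.22% and 8.59% of all genes. The higher calls numbered 4 (12.5%, against 3.46% of all genes) without WT 1 and 4 (12.5%, against 3.68%) without cKO 2. They numbered 6 (18.8%) each without WT 3, cKO 1 and cKO 3, against 5.1%, 3.6% and 5.35% of all genes. The sum of their FPKM was 324, 350 and 317 in WT and 371, 384 and 387 in cKO. The summed levels of the 2 groups did not overlap, and the ratio of the means was 1.15. The same was seen for the sums of the Kctd, Btbd and Kbtbd genes (ratios 1.03, 1.04 and 1.12). Only the sums of the cullins overlapped (ratio 1.02).
Klhl25 (ENSMUSG00000055652, chr7:75848310-75874131, plus strand), an adaptor known to target ATP citrate lyase, had the smallest p-value of all members. It was measured at 11.7, 15.1 and 12.4 FPKM in the WT libraries and 24.4, 22.9 and 22.8 FPKM in the cKO libraries. All cKO libraries lay well above all WT libraries, and the WT libraries were the more variable. The ratio of the means was 1.79, from 13.1 ± 1.77 to 23.4 ± 0.924 FPKM (SD, n = 3), with a log2 difference of 0.80 ± 0.0889 (SE) and a limma adjusted p of 0.000361.
Klhl13 (ENSMUSG00000036782, chrX:23219271-23365082, minus strand) is the partner of Klhl9 in a Cul3 complex that acts on Aurora B in mitosis. It was measured at 7.92, 7.46 and 6.88 FPKM in the WT libraries and 10.9, 11.5 and 12.9 FPKM in the cKO libraries. Every cKO library exceeded every WT library, and the highest was the male one. The means rose 1.59-fold, from 7.42 ± 0.519 to 11.8 ± 1.04 FPKM (SD, n = 3; log2 difference 0.60 ± 0.0818 (SE), limma adjusted p = 0.0012). Klhl9 itself, 1 of the 2 uncalled Klhl genes with the highest levels, averaged 36.2 ± 4.28 FPKM in WT and 41 ± 5.23 FPKM in cKO (limma adjusted p = 0.273), and its groups overlapped.
Klhl14 (ENSMUSG00000042514, chr18:21550377-21654718, minus strand) encodes a torsinA-binding protein. Its values were 0.859, 1.39 and 1.26 FPKM in the WT libraries and 2.55, 2.17 and 2.35 FPKM in the cKO libraries, with 99 to 267 recovered reads a library. All cKO libraries lay above the WT libraries, and the means differed 2.01-fold (1.17 ± 0.276 and 2.36 ± 0.192 FPKM, SD, n = 3), with a log2 difference of 0.64 (limma adjusted p = 0.004). Of its exon bases, 13.8% lie over 4930426D05Rik on the opposite strand, and the strand setting of the counting is not given in the sources used here, so reads of the overlap cannot be assigned.
Klhl29 (ENSMUSG00000020627, chr12:5077472-5375682, minus strand) was measured at 8.67, 11.1 and 11.7 FPKM in the WT libraries and 15.8, 14.1 and 15 FPKM in the cKO libraries. No cKO library fell to the WT range, the means rose 1.43-fold (10.5 ± 1.59 to 15 ± 0.831 FPKM, SD, n = 3), and limma gave an adjusted p of 0.0105 (0.04996 without cKO 1).
Klhl32 (ENSMUSG00000040387, chr4:24612554-24851124, minus strand) was the lower call that held in every setting. It was measured at 3.97, 3.48 and 4.26 FPKM in the WT libraries and 2.33, 2.27 and 2.42 FPKM in the cKO libraries. The cKO libraries lay close together, all of them below the WT libraries. The WT mean was 1.67 times the cKO mean (3.9 ± 0.394 and 2.34 ± 0.0748 FPKM, SD, n = 3), with a log2 difference of -0.55 ± 0.0876 (SE) and a limma adjusted p of 0.00278.

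The other Klhl calls were smaller and did not hold without every library. Klhl7, which is mutated in a form of retinitis pigmentosa, had the highest level of all 78 members. Its values were 50.5, 54.5 and 51.7 FPKM in the WT libraries and 60.5, 65.5 and 64.5 FPKM in the cKO libraries. The cKO libraries were all higher, the ratio of the means was 1.21 (limma adjusted p = 0.0147), and the call was lost without WT 1 (adjusted p = 0.0680) and without cKO 2 (adjusted p = 0.0775).
Klhl2 and Klhl3 are close paralogues whose known substrates include the WNK kinases of salt transport. Klhl2 was measured at 9.32, 10.6 and 8.52 FPKM in the WT libraries and 12, 12.1 and 12.4 FPKM in the cKO libraries, a 1.29-fold difference of the means (limma adjusted p = 0.0194). Klhl3 was measured at 4.89, 5.33 and 4.6 FPKM in the WT libraries and 6.42, 6.46 and 6.01 FPKM in the cKO libraries, a 1.27-fold difference (limma adjusted p = 0.0281). Neither pair of groups overlapped. The Klhl2 call was lost without WT 1 (adjusted p = 0.0701), cKO 1 (0.0577), cKO 2 (0.0652) or cKO 3 (0.0577), and the Klhl3 call without WT 1 (0.0895), WT 3 (0.0652), cKO 1 (0.0915) or cKO 2 (0.106).
Klhl24, a regulator of keratin turnover that is mutated in a blistering skin disease, was measured at 24.6, 25.6 and 25.2 FPKM in the WT libraries and 29, 31.1 and 28.4 FPKM in the cKO libraries. All cKO libraries lay above the WT libraries, by a ratio of means of 1.17 (limma adjusted p = 0.0369). The call held without WT 2 but not without any other library (adjusted p at most 0.165, without cKO 2), nor after correction for length and GC (0.0692), with a term for sex (0.0590) or without trend and robust moderation (0.0542).
Klhl28 was measured at 10.6, 12 and 10.4 FPKM in the WT libraries and 12.1, 14.6 and 14.3 FPKM in the cKO libraries. The lowest cKO library lay just above the highest WT library, the ratio of the means was 1.24, and the limma adjusted p was 0.0486. It was lost without WT 1 (0.148), WT 3 (0.110), cKO 2 (0.171) or cKO 3 (0.130), after correction for length and GC (0.0858), with a term for sex (0.0747) and without trend and robust moderation (0.0625), all as adjusted p.
Klhl34, on the X chromosome, was measured at 8.1, 7.06 and 6.72 FPKM in the WT libraries and 4.72, 6.44 and 5.44 FPKM in the cKO libraries. The groups did not overlap, but cKO 2 lay close to WT 3, and the WT mean was 1.32 times the cKO mean (limma adjusted p = 0.0499). The call held without cKO 2 but not without any other library (adjusted p at most 0.170, without WT 1), nor after correction for length and GC (0.0985), with a term for sex (0.0661) or without trend and robust moderation (0.0589).
Beside these, Klhl18 (5.65 ± 0.953 to 7.18 ± 0.5 FPKM, adjusted p = 0.0778) and Klhl4 (4.72 ± 0.655 to 3.75 ± 0.103 FPKM, adjusted p = 0.0833) were near the threshold, each with groups that did not overlap. Klhl40, an adaptor of skeletal muscle, averaged 0.5 ± 0.307 and 0.151 ± 0.0892 FPKM (adjusted p = 0.0954), its groups overlapped, it had 5 to 43 recovered reads a library, and 21.6% of its exon bases are shared with another gene. Without WT 2, where it was lowest among the WT libraries, Klhl40 was called lower (limma adjusted p = 0.00301), and Klhl18 was called higher (0.0280). Klhl23, the other highly expressed uncalled Klhl gene, averaged 37.9 and 39.1 FPKM (adjusted p = 0.658). The remaining 16 Klhl genes (Klhl1, Klhl5, Klhl6, Klhl8, Klhl10, Klhl11, Klhl12, Klhl15, Klhl17, Klhl20, Klhl21, Klhl22, Klhl26, Klhl35, Klhl36 and Klhl42) had log2 differences of -0.19 to 0.20 and adjusted p-values of at least 0.121, and the groups overlapped for 13 of them.

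**Figure D3:**
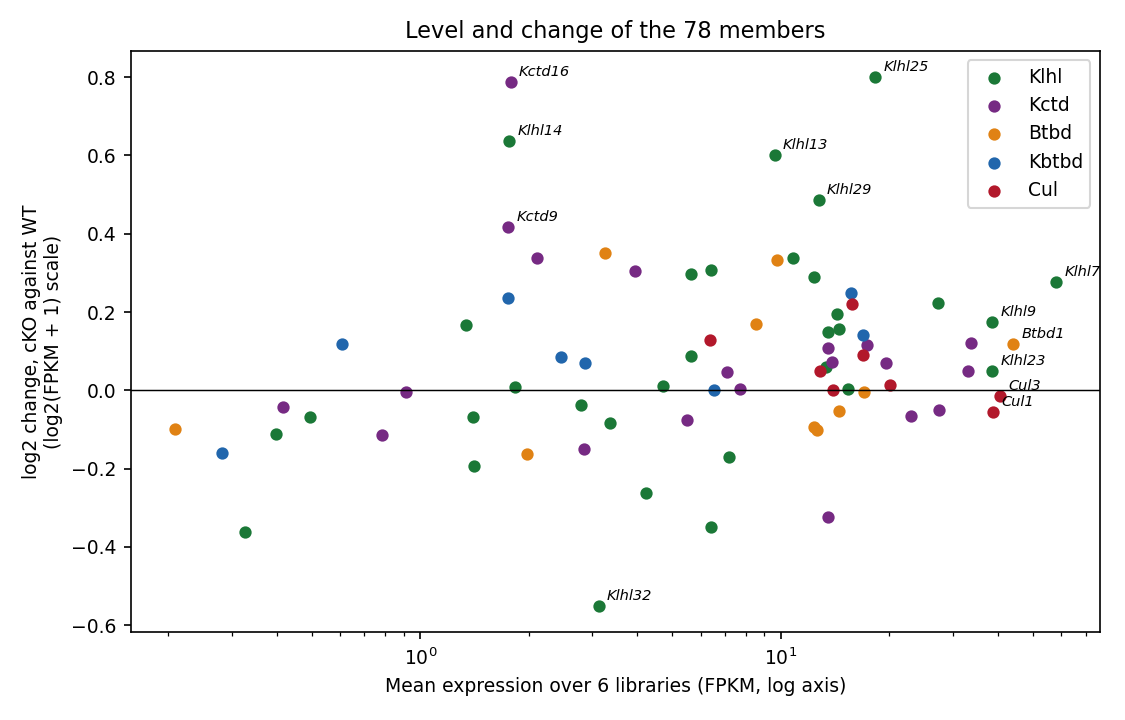
Log2 difference between cKO and WT (log2(FPKM + 1) scale) against mean FPKM on a log axis for the 78 members, coloured by class, with a name beside those of largest change or highest level. Klhl25 (0.80) and Kctd16 (0.79) lie highest and Klhl32 (-0.55) lowest, and none of the 9 members with a mean under 1 FPKM was called by limma with all libraries.

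Of the 20 Kctd genes 2 (10%) rose and 1 (5%) fell, against 7.22% and 8.59% of all genes. Kctd16 (ENSMUSG00000051401, chr18:40256962-40531630, plus strand), an auxiliary subunit of the GABA-B receptor, had the largest ratio of the called members. Its values were 0.854, 1.2 and 1.07 FPKM in the WT libraries and 2.38, 2.75 and 2.43 FPKM in the cKO libraries, with 77 to 232 recovered reads a library. All cKO libraries lay above all WT libraries, and the means rose 2.42-fold, from 1.04 ± 0.175 to 2.52 ± 0.197 FPKM (SD, n = 3; log2 difference 0.79 ± 0.0943 (SE), limma adjusted p = 0.000574). Of its exon bases, 10.4% overlap AC098707.1 on the opposite strand.
The other auxiliary subunits of the receptor were not called. Kctd12, the most abundant of them here, averaged 19 ± 0.936 FPKM in WT and 20 ± 1.24 FPKM in cKO (limma adjusted p = 0.525), and 64.2% of its exon bases are shared with Gm26778 on the opposite strand. Kctd8 averaged 0.856 ± 0.0913 and 0.712 ± 0.0399 FPKM (adjusted p = 0.295), and Kctd12b 0.917 ± 0.0871 and 0.913 ± 0.165 FPKM (adjusted p = 0.974). Every cKO library of Kctd8 (0.678 to 0.756 FPKM) lay below every WT library (0.786 to 0.959 FPKM), while the groups of Kctd12b overlapped.
The receptor subunits themselves were Gabbr1, with 51.1 ± 3.49 and 50.1 ± 1.62 FPKM (adjusted p = 0.821), and Gabbr2, with 13.9 ± 1.4 and 11.8 ± 0.878 FPKM (adjusted p = 0.108). Whether Kctd16 differs from the other subunits in its response was not tested.

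**Figure D4:**
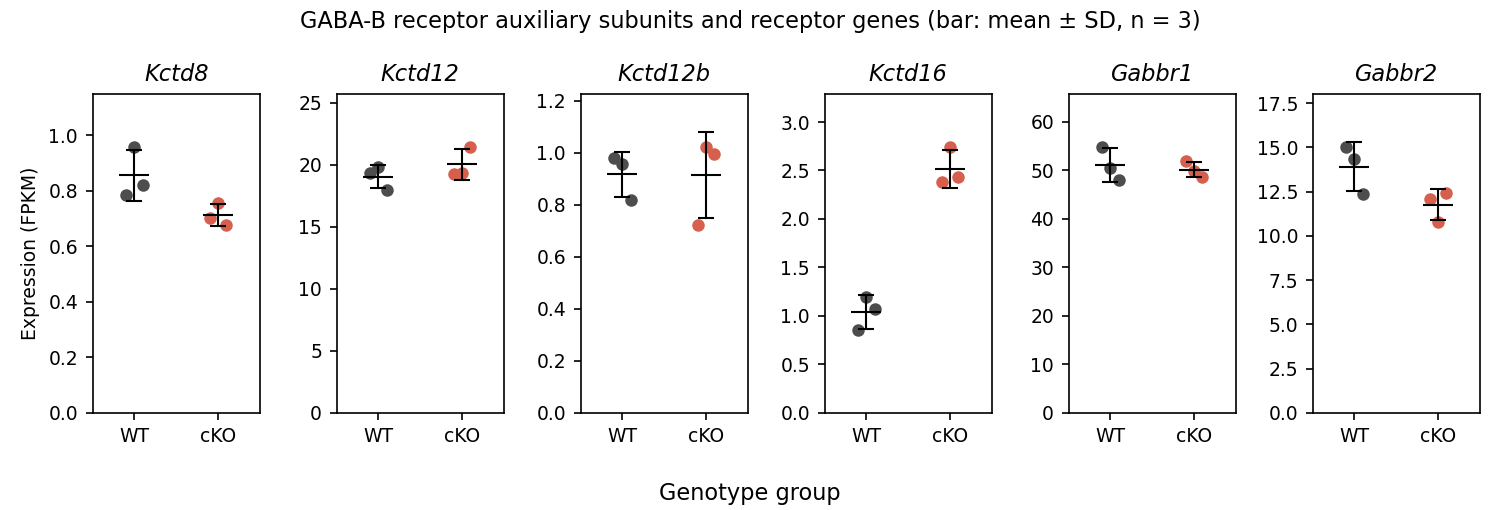
FPKM of the GABA-B auxiliary subunit genes and of Gabbr1 and Gabbr2 in each library, with the mean and SD as bars; every vertical axis starts at 0. Kctd16 alone among the 6 panels shows cKO libraries (2.38 to 2.75 FPKM) above all WT libraries (0.854 to 1.2 FPKM). Kctd8 shows cKO libraries (0.678 to 0.756 FPKM) below all WT libraries (0.786 to 0.959 FPKM).

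Kctd9 was measured at 1.37, 1.52 and 1.2 FPKM in the WT libraries and 2.32, 2.19 and 1.93 FPKM in the cKO libraries. No library of one group fell among the other, and the ratio of the means was 1.58 (limma adjusted p = 0.0138), but the call was lost without cKO 1 (0.0573) and cKO 2 (0.0528). Kctd4 was measured at 13.1, 17.3 and 15.1 FPKM in the WT libraries and 11.1, 12.2 and 12.3 FPKM in the cKO libraries. The highest cKO library was below the lowest WT library, and the WT mean was 1.28 times the cKO mean (limma adjusted p = 0.0453). The Kctd4 call held without WT 1 but not without any other library (adjusted p at most 0.152, without cKO 1), nor with a term for sex (0.0587) or without trend and robust moderation (0.0604).
Near the threshold lay Kctd7, which is mutated in a progressive myoclonic epilepsy, with 3.43 ± 0.499 and 4.46 ± 0.47 FPKM (adjusted p = 0.0734), and Kctd21, a Cul3 adaptor that binds Hdac1, with 1.76 ± 0.4 and 2.47 ± 0.285 FPKM (adjusted p = 0.0822). Kctd7 was called higher without WT 2 (0.0321), and all cKO libraries of Kctd7 and of Kctd21 lay above the WT libraries. Kctd17, mutated in myoclonus-dystonia, averaged 32.1 and 35.1 FPKM (adjusted p = 0.255), and Kctd20 averaged 32.4 and 33.5 FPKM (adjusted p = 0.588). The remaining 10 Kctd genes (Kctd1, Kctd2, Kctd3, Kctd5, Kctd6, Kctd10, Kctd13, Kctd14, Kctd15 and Kctd18) had log2 differences of -0.15 to 0.12 and adjusted p-values of at least 0.257. The groups overlapped for 9 of these 10 genes.

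Of the 10 Btbd genes 2 (20%) rose and 0 fell, against 7.22% and 8.59% of all genes. Btbd11, which is known from the postsynaptic density of inhibitory interneurons, was measured at 2.54, 2.59 and 3.11 FPKM in the WT libraries and 3.91, 3.63 and 3.77 FPKM in the cKO libraries. The groups did not overlap and the ratio of the means was 1.37 (limma adjusted p = 0.0241). The call was lost without WT 1 (0.0937), cKO 1 (0.0850), cKO 2 (0.0623) or cKO 3 (0.0607), and after correction for length and GC (0.0552). Of the interneuron markers 6 of 18 were called lower in cKO, and their part in this value was not tested.
Btbd7, a regulator of branching in developing glands, was measured at 8.68, 9.38 and 7.47 FPKM in the WT libraries and 10.3, 12 and 10.7 FPKM in the cKO libraries. The groups did not overlap, the ratio was 1.29, and the limma adjusted p was 0.0344. The call held without WT 2 and was lost without each of the others (adjusted p at most 0.132, without cKO 2), and with a term for sex (0.0554).
Btbd1, which binds topoisomerase I, averaged 42.1 and 45.8 FPKM (adjusted p = 0.231), with all cKO libraries above the WT libraries. Of its transcript 45.3% is near-identical to Gm14121, so its reads may be shared with that gene. Btbd2 averaged 17 and 16.9 FPKM (adjusted p = 0.963). The remaining 6 Btbd genes (Btbd3, Btbd6, Btbd8, Btbd9, Btbd10 and Btbd17) had log2 differences of -0.16 to 0.17 and adjusted p-values of at least 0.178, with overlapping groups.
The Kbtbd genes are further BTB-Kelch adaptors, and their summed expression was 44.3 FPKM in WT and 49.7 FPKM in cKO. Kbtbd7, which pairs with Kbtbd6 to degrade the Rac activator Tiam1, was nearest, with 14.2 ± 1.32 FPKM in WT and 17 ± 1.14 FPKM in cKO (limma adjusted p = 0.0638). All its cKO libraries lay above the WT libraries, and voom on recovered reads put it past the threshold (0.0402), as it did Kctd7 (0.0421) and Klhl18 (0.0347). Without WT 2, Kbtbd7 was called higher (0.0258) and Kbtbd13, with 9 to 35 recovered reads a library, was called lower (0.0262). Kbtbd2, an adaptor for the regulatory subunit of PI3-kinase, averaged 16 and 17.8 FPKM (adjusted p = 0.157), with all cKO libraries above the WT libraries. The remaining 6 Kbtbd genes (Kbtbd3, Kbtbd4, Kbtbd6, Kbtbd8, Kbtbd11 and Kbtbd13) had log2 differences of -0.16 to 0.23 and adjusted p-values of at least 0.233, with overlapping groups.

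**Figure D5:**
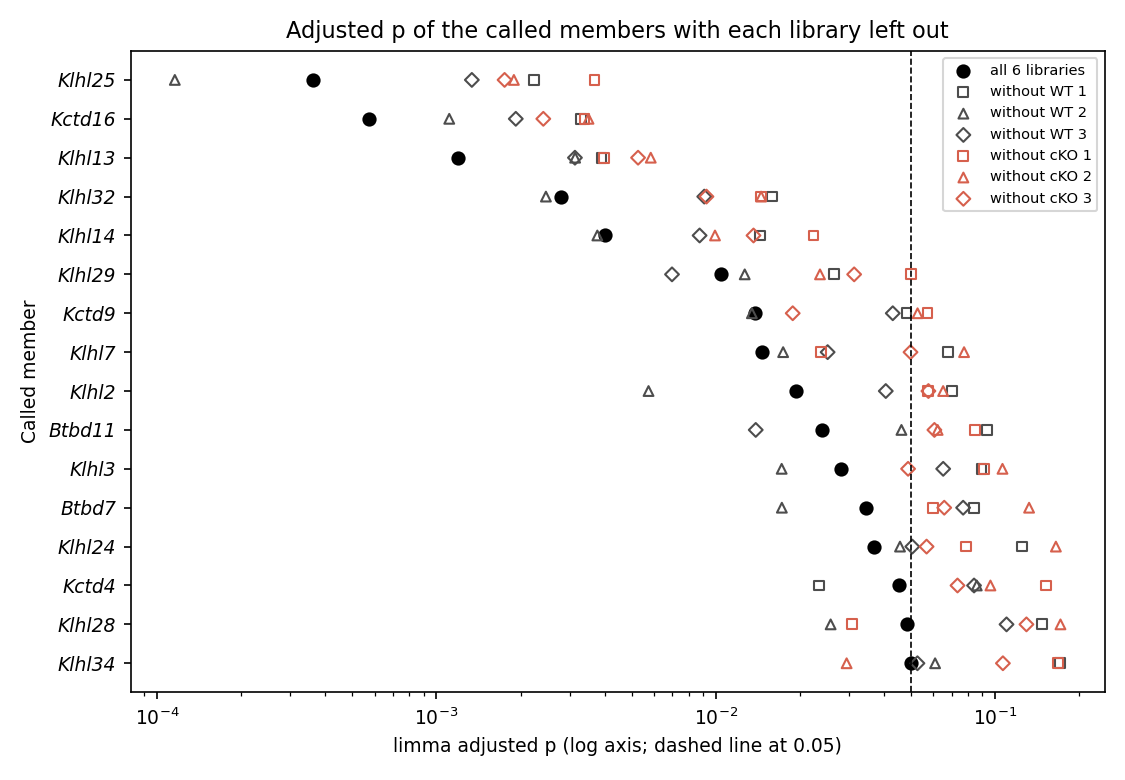
Limma adjusted p of the 16 called members on a log axis, with all libraries and with each of the 6 libraries left out in turn. The points of Klhl25, Kctd16, Klhl13, Klhl32, Klhl14 and Klhl29 stay under the line at 0.05, and each of the other 10 genes has at least 1 point above it.

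The genes around the adaptors were read from lists chosen with earlier results known. The median log2 difference of 22 measured genes of cullin activation and exchange was 0.018, against 0.002 over all genes. Of these 22 genes 2 (9.09%) rose and 0 fell, against 7.22% and 8.59% of all genes. Both encode Dcun1d proteins, which help attach Nedd8 to cullins: Dcun1d3 went from 3.12 ± 0.426 to 4.66 ± 0.191 FPKM (limma adjusted p = 0.0093) and Dcun1d2 from 6.63 ± 0.714 to 8.63 ± 0.209 FPKM (adjusted p = 0.0201). The Dcun1d2 call was lost without WT 1 (0.0841), cKO 1 (0.0538), cKO 2 (0.0760) or cKO 3 (0.0569).
None of the 11 genes of the COP9 signalosome, which removes Nedd8, was called by limma on genotype alone or by voom (median -0.015), and 2 had an unadjusted p under 0.05, both lower. The smallest p-values belonged to Cops9, with 30.8 ± 4.77 and 24.8 ± 2.05 FPKM (adjusted p = 0.0833), and Cops6, with 28.7 ± 0.924 and 25.4 ± 1.43 FPKM (adjusted p = 0.102).
Of 38 measured adaptors of the other cullins 2 (5.26%) rose and 0 fell (median 0.00), against 7.22% and 8.59% of all genes. Both are F-box histone demethylases: Kdm2b went from 11.9 ± 1.38 to 15.3 ± 1.12 FPKM (adjusted p = 0.0296) and Kdm2a from 7.56 ± 0.718 to 9.38 ± 0.377 FPKM (adjusted p = 0.0394). The Kdm2b call was lost without WT 1, WT 3, cKO 1 or cKO 2 (adjusted p up to 0.114), and the Kdm2a call without any library but WT 2 (up to 0.127).
Of 20 other BTB adaptors of Cul3, whose symbols fall outside the rule, 2 (10%) rose and 1 (5%) fell (median 0.064). Of all genes 7.22% rose and 8.59% fell. Ivns1abp, a BTB-Kelch protein, went from 101 ± 6.04 to 122 ± 5.66 FPKM (adjusted p = 0.0236), and Shkbp1, a Kctd-like protein, from 4.99 ± 1.03 to 7.13 ± 0.775 FPKM (adjusted p = 0.0319). Zbtb16, a zinc finger repressor, fell from 4.39 ± 0.971 to 2.79 ± 0.334 FPKM (adjusted p = 0.027). These calls were lost without WT 1, cKO 2 or cKO 3 for Ivns1abp (up to 0.0989), without WT 1, WT 3, cKO 1 or cKO 2 for Shkbp1 (up to 0.124), and without WT 1, cKO 1 or cKO 3 for Zbtb16 (up to 0.0906).
Of 45 measured partners and substrates of the named adaptors 4 (8.89%) rose and 0 fell, against 7.22% and 8.59% of all genes. The median log2 difference of the 45 was 0.134. Hdac1, a deacetylase bound by Kctd21, went from 9.74 ± 0.376 to 12.6 ± 0.405 FPKM (adjusted p = 0.00694). Acly, the ATP citrate lyase that Klhl25 targets, went from 53.2 ± 7.66 to 71.2 ± 0.538 FPKM (adjusted p = 0.0134). Leaving out any single library kept both calls. Ptch1, the Hedgehog receptor, went from 3.6 ± 0.822 to 5.42 ± 0.128 FPKM (adjusted p = 0.0191), and was lost without WT 1, cKO 1, cKO 2 or cKO 3 (up to 0.0695). Grik2, a kainate receptor subunit, went from 23.4 ± 2.34 to 28.7 ± 1.34 FPKM (adjusted p = 0.0363), and was lost without any library but WT 2 (up to 0.132).

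Across the members, mean levels ran from 0.209 to 57.9 FPKM with a median of 8.12 FPKM, against 5.47 FPKM over all genes. Of the 9 members with a mean under 1 FPKM, 0 were called by limma with all libraries or by voom. Among these, 1 had an unadjusted p under 0.05, and Klhl40 and Kbtbd13 were called without WT 2. Of the 33 between 1 and 10 FPKM 7 (21.2%) rose and 2 (6.06%) fell. Of the 36 at 10 FPKM or more 6 (16.7%) rose and 1 (2.78%) fell. Over all genes, without a split by level, 7.22% rose and 8.59% fell. The exons of the members had a median length of 4253 bases and those of the members called higher 7041 bases, against 4229 bases over all genes and 5093 bases over all genes called higher. After each library was corrected for length and GC content, 11 of 77 members (14.3%) were called higher and 2 (2.6%) lower. Of all genes 8.21% and 8.41% were called higher and lower in that setting. Klhl17, which had no matched length, was not in this setting.
Some members lie near each other in the genome. Klhl10 and Klhl11 are 5.59 kb apart, Kbtbd7 and Kbtbd6 20.8 kb, Kctd21 and Kctd14 101 kb, Cul9 and Cul7 104 kb, Klhl6 and Klhl24 115 kb, and Btbd17 and Kctd2 624 kb. Of these 12 genes 1 was called, namely Klhl24, while 15.8% of all genes were called.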

How the data were processed

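Trizol RNA of each neocortex went into a TruSeq RNA library, per the labels' protocols. The deposited table holds FPKM values that the authors computed per gene, and the submitters' processing notes name bcl2fastq 1.8.4, STAR 2.5.4b, featureCounts 1.6.1, R 3.4.1, DESeq2 1.22.1 and mm10, with no role or order. Neither the annotation release nor the strand setting is given in the sources used here. Lines without a gene identifier (139) were left out, and genes with an identifier but no symbol were kept. Of the 15703 genes 15661 matched GENCODE M21 by identifier, and Klhl17 was among the 42 that did not.

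Genotypes were compared with limma 3.58.1 (R 4.3.3) on log2(FPKM + 1), with trend and robust moderation and Benjamini-Hochberg adjustment over all 15703 genes. Reads per gene were recovered from the steps of low FPKM values and are approximate: 94.8% to 96.0% of low values lay within 0.1 of a whole read. Alternatives were a pseudocount of 0.1, a minimum mean of 1 FPKM, median-of-ratios scaling, a length and GC correction, voom on recovered reads, limma without trend and robust moderation, the replicate block, each library left out in turn and, chosen after seeing the data, a term for sex.

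Named members were all called ones, those with an adjusted p up to 0.1, the cullins, the GABA-B subunits and the 2 uncalled members of highest level in each class. From each pathway list up to 4 called genes of smallest p were named, or 2 where none was called. The members and all lists were chosen with earlier results of these data known.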

Additional observations from a re-analysis of the deposited data

How the results depend on the processing

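The counts of called members, 13 higher and 3 lower, stood under a pseudocount of 0.1, a minimum mean of 1 FPKM and median-of-ratios scaling. They were 11 (14.3%) and 2 (2.6%) after correction for length and GC, against 8.21% and 8.41% of all genes. With voom on recovered reads they were 17 (22.1%) and 3 (3.9%), against 9.63% and 9.19% of all genes. Without trend and robust moderation they were 11 (14.1%) and 1 (1.28%), against 6.72% and 7.93%. A term for sex gave 10 (12.8%) and 1 (1.28%), against 5.94% and 7.36%. With 1 library left out, 5 to 16 members were called higher and 1 to 3 lower, against 544 to 1572 and 830 to 1517 of all genes (1134 and 1349 with all libraries). Of the pathway genes 10 were called higher and 1 lower; the counts were 16 and 4 with voom, 3 lower after correction for length and GC, and 3 to 20 higher and 0 to 3 lower with 1 library left out. Sign changes were counted for the 40 named members only. Among these, the log2 difference changed sign in 17 instances, all in 7 uncalled genes (Btbd2, Cul2, Cul3, Cul4a, Cul5, Kctd12b and Klhl23). The difference of these 7 was at most 0.05 in size with all libraries, and no called member changed sign. Members outside this count also changed sign, such as Klhl35 (-0.068 with all libraries, up to 0.0056 with 1 library left out). The deviations of same-numbered libraries correlated at -0.0427, 0.109 and -0.0377, and those of different-numbered libraries at -0.224 to 0.223. With deviations taken from means of 3 libraries, these values cannot decide whether the replicate numbers pair the libraries. With the replicate block 13 members (16.7%) were called higher and 2 (2.56%) lower, against 8.11% and 9.81% of all genes. Klhl34 was lost in this setting (limma adjusted p = 0.0564). There, 12 pathway genes were called higher and 3 lower, among them 1 gene of the COP9 list, Cops9. Where exons are shared with another gene, or a gene has few recovered reads, such as Klhl40, the values limit what can be read. The cause of these differences between settings was not tested.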
